A study of Homo sapiens with 15 samples.

Results

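Described here are 10 genes, the 4 muscle actins ACTC1, ACTA1, ACTA2 and ACTG2, the 4 tropomyosins TPM1, TPM2, TPM3 and TPM4, the actin cross-linker ACTN2 and the actin-binding protein CNN1, out of 60605 genes in the deposited table. They were chosen by name, with earlier results of these data known, and all 10 had a row in the table. ACTC1, ACTA1 and ACTN2 are used chiefly in striated muscle, whereas ACTA2, ACTG2 and CNN1 are also used in smooth muscle and stroma, and the tropomyosins are kept apart because each gene gives muscle and non-muscle isoforms that a count per gene does not separate. The data are bulk RNA sequencing counts of 15 libraries from the wild-type human embryonic stem cell line H1 during cardiac differentiation. All cells received the WNT activator CHIR99021 on Day 0 and insulin on Day 1, and Days 0, 1 and 2 have 1 library each, shared by every arm. From Day 2 the cells were left in their wells without an inducer (NP-ctrl, not passaged), left in place with IWP2, which blocks WNT secretion, until Day 4 (NP-IWP2), or dissociated and replated without IWP2 (passaged), and each arm has 1 library on each of Days 3, 5, 7 and 10. The paper states that the passaged cells were split on Day 2, so they were also plated at a lower density. The effect of that density cannot be told apart from that of replating. The labels do not give the supplements used at replating. The paper states that a ROCK inhibitor, used for cell survival at passaging, was added in the experiments that followed its survival tests. If only passaged cells received it, its effect cannot be told apart from that of replating. No library has a biological replicate, the cells come from 1 cell line, and each library is a mixture of all cells in the culture.

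Actin polymerises into the thin filaments that myosin pulls on, and tropomyosin lies along those filaments and, with troponin, sets when myosin can bind. ACTC1 encodes the cardiac alpha-actin, ACTA1 the skeletal alpha-actin that heart muscle also makes, ACTA2 the alpha-actin of vascular smooth muscle and activated fibroblasts that early embryonic heart muscle makes for a time, and ACTG2 the gamma-actin of visceral smooth muscle. ACTN2 encodes the alpha-actinin that anchors thin filaments in the Z-disc, and CNN1 encodes calponin, a thin-filament protein best known from smooth muscle. TPM1 gives the main tropomyosin of heart muscle, TPM2 is used in skeletal and smooth muscle, TPM3 in slow skeletal muscle and in the cytoskeleton, and TPM4 mainly in the cytoskeleton of non-muscle cells.

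Levels are FPKM, the reads of a gene per kilobase of its exons scaled by the total count of the library. Comparison between genes depends on the exon length assigned to each, and comparison between libraries on the scaling. Total counts ranged from 13254723 to 20250115 per library. The 10 genes together took between 0.115% and 0.162% of all counts from Day 0 to Day 3, and 1.41% in the passaged library of Day 7, the highest share of the 15 libraries. Mitochondrial genes took a share of counts that ranged from 1.53% in the passaged library of Day 3 to 10.3% in that of Day 10, and a passaged library thus stood at each end of the range. As a check of the labels, the cardiomyocyte markers TNNT2, MYH6, MYL7, NKX2-5, TNNI1 and RYR2 summed to 1.88 to 2.35 FPKM on Days 0 to 2 and to 468, 1422 and 3423 FPKM on Day 10 for NP-ctrl, NP-IWP2 and the passaged arm. In bulk RNA, fewer cells of a type and less RNA per cell cannot be told apart.

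The 4 muscle actins are so alike that their sequences bear on whether reads can be assigned to them. Over the aligned coding sequence of 1134 bases, ACTC1 was 85.6% identical to ACTA1, 85.5% to ACTA2 and 85.9% to ACTG2, from the transcripts of GENCODE release 44. The first 60 coding bases are shown for each muscle actin, because they carry the amino-terminal codons in which the isoforms differ, and capitals mark bases that differ from the aligned base of ACTC1 or have none.
ACTC1: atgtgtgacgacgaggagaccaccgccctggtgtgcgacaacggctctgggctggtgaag
ACTA1: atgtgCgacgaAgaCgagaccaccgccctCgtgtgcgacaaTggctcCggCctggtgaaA
ACTA2: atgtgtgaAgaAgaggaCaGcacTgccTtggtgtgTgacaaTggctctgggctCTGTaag
ACTG2: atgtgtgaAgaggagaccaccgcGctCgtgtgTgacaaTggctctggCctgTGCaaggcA
Within these 60 bases ACTA1 had 8 such bases, ACTA2 12 and ACTG2 10. Of all stretches of 50 bases along the transcript, 78.3% were found in no other gene for ACTC1, 77.9% for ACTA1, 69.9% for ACTA2 and 99.9% for ACTG2. The genes that held most of the shared stretches were GJD2-DT for ACTC1, ENSG00000290037 for ACTA1 and ACTA2-AS1 for ACTA2. All stretches of ACTN2, CNN1, TPM1 and TPM2 were found in no other gene, whereas TPM3 reached 93.1% and TPM4 70.1%, with TPM4P2, TPM4P3 and TPM3P5 among the genes that shared them. Whether the counting used strand is not given in the sources used here, so counts of ACTC1, ACTA1, ACTA2, TPM3 and TPM4 are uncertain where those genes overlap or resemble them.

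The promoters of the muscle actins are shown because serum response factor, SRF, is known to drive these genes through the CArG box, a 10-base element with CC at its start, GG at its end and 6 bases of A or T between them. Each sequence is the 250 bases before the start of the MANE Select transcript on GRCh38, read 5′ to 3′ on the strand of the gene, with any CArG box in capitals. The windows are chr15:34795550-34795799 (minus strand) for ACTC1, chr1:229434095-229434344 (minus strand) for ACTA1, chr10:88952774-88953023 (minus strand) for ACTA2 and chr2:73892758-73893007 (plus strand) for ACTG2.
ACTC1: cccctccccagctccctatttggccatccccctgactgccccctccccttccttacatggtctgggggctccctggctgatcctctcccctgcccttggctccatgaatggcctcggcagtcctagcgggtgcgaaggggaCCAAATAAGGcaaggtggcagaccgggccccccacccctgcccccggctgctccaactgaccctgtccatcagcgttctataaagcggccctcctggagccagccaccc
ACTA1: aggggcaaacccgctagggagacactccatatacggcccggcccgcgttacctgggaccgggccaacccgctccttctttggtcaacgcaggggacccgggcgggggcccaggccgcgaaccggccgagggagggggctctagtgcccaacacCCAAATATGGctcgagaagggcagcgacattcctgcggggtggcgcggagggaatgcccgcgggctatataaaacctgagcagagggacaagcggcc
ACTA2: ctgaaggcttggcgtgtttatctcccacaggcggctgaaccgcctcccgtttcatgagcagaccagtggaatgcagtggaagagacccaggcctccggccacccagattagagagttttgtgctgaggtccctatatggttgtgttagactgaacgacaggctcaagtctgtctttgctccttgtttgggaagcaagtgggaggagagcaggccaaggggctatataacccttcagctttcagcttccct
ACTG2: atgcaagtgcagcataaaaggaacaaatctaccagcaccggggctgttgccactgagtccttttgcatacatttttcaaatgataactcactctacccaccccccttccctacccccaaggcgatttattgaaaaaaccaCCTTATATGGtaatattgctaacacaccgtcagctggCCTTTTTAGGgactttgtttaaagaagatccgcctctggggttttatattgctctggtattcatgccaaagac
Counting from the start of the transcript, the box begins at position -109 in ACTC1, at -97 in ACTA1 and at -110 and -73 in ACTG2, and TPM3 also has a box, at -67. In windows that also held the 50 bases after the start, searched on both strands, 4 of the 10 genes had a CArG box, as did 1.20% of 20046 protein-coding promoters. TATAAA was found in ACTC1, ACTA1 and ACTG2 and in 9.71% of all promoters, and GGAATG, the core of the M-CAT element bound by TEAD factors, in ACTA1, ACTA2 and TPM1 and in 11.3% of all promoters. A MEF2 site was found in 0 of the 10 and in 0.474% of all promoters, which says only that these letters are not in the windows. These are matches of letters and not measurements of binding. Only exact matches to the CArG form were counted, so none is marked in ACTA2. Its window holds the near matches ccctatatgg and ccttgtttgg, so the lack of capitals does not mean that no box is present. ACTG2, with 2 boxes, had the lowest maximum of the 10 genes, 0.65 FPKM.

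By FPKM ACTC1 was the most abundant of the 10 genes from Day 5 on in the passaged arm, from Day 7 on in NP-IWP2 and on Day 10 in NP-ctrl. This order rests on the length assigned to TPM1, and by counts ACTC1 led on Days 7 and 10 of the passaged arm, whereas in NP-IWP2 TPM1 had more reads than ACTC1 on Day 7 (81395 against 38499) and Day 10 (53031 against 25859). The gene lies at chr15:34790230-34795549. Its FPKM was 1.52, 1.35 and 1.38 on Days 0, 1 and 2. On Day 3 ACTC1 stood at 8.14 FPKM for NP-ctrl, 5.60 for NP-IWP2 and 1.91 for the passaged arm, the last close to the shared Day 2 level. In NP-ctrl it then reached 184 FPKM on Day 5, 222 on Day 7 and 207 on Day 10, a plateau from Day 5. The corresponding FPKM values were 233, 1039.8 and 713 in NP-IWP2 and 318, 2575 and 2147 in the passaged arm, so both arms peaked on Day 7. From Day 3 to Day 5 alone, the ACTC1 level of the passaged arm was 166 times higher (exact 95% interval 129 to 218), against 22.6 times in NP-ctrl (20.2 to 25.5). From Day 2 to Day 3 it was 5.90 times higher in NP-ctrl (4.49 to 7.85) and 4.06 times in NP-IWP2 (3.03 to 5.49), against 1.39 times in the passaged arm (0.959 to 2.00), where no change was detectable at this depth. The passaged arm thus went from the lowest of the 3 arms on Day 3 to the highest on Day 5. Intervals of ratios cover counting error only.

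ACTA1, at chr1:229430365-229434104, stayed low outside the passaged arm. It had 1.86 FPKM on Day 0, 0.27 FPKM on Day 1 and no read on Day 2. In NP-ctrl the 4 values from Day 3 to Day 10 were 0.83, 0.29, 1.17 and 1.06 FPKM, and in NP-IWP2 they were 0.81, 0.56, 2.16 and 2.86 FPKM. In the passaged arm they were 0.18, 15.43, 15.02 and 34.69 FPKM, so that the libraries of Days 5, 7 and 10 lay above all others. The early level on Day 0 rested on 75 reads, and that of the passaged arm on Day 10 on 1257. The skeletal muscle regulators MYOD1, MYOG and MYF5 did not exceed 0.25 FPKM in any library, and none of the 5 genes of the skeletal muscle list passed the filter of 1 FPKM.

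ACTN2, at chr1:236664141-236764631, was close to absent until Day 3, with 0.07 to 0.15 FPKM up to and including that day. From Day 5 on its FPKM was 6.0, 7.89 and 10.7 for NP-ctrl, 11.2, 35.8 and 38.9 for NP-IWP2 and 7.79, 45.03 and 53.55 for the passaged arm. Unlike ACTC1 and ACTA1, ACTN2 was higher in NP-IWP2 than in the passaged arm on Day 5, with a passaged to NP-IWP2 ratio of 0.695 (0.657 to 0.736). On Day 10 the same ratio was 1.38 (1.34 to 1.41), and both arms lay above NP-ctrl.

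**Figure D1:**
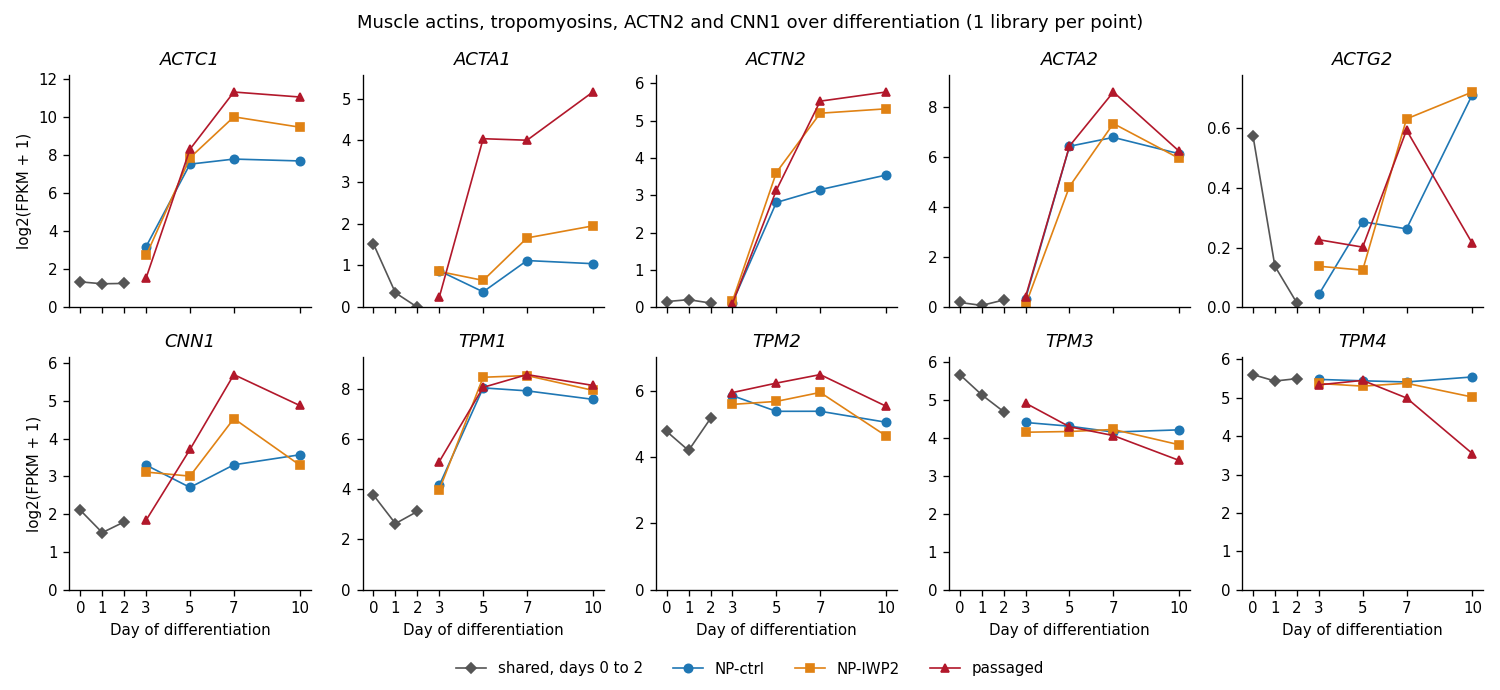
Level of each of the 10 genes as log2(FPKM + 1) against day of differentiation, with 1 library per point, the shared libraries of Days 0 to 2 as grey diamonds and the 3 arms as coloured lines, each panel with its own vertical scale starting at 0. ACTC1 and ACTN2 lie above their Day 3 levels in all 3 arms from Day 5 on, ACTA1 lies at 15.02 FPKM or more in the passaged arm from Day 5 on and at most at 2.86 FPKM elsewhere, ACTA2 and CNN1 have their highest points in the passaged arm on Day 7, and ACTG2 does not exceed 0.65 FPKM.

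The 3 genes that smooth muscle and stroma also use are ACTA2, CNN1 and ACTG2. ACTA2, at chr10:88935074-88991339, was at 0.05 to 0.34 FPKM up to Day 3 and reached 84.49, 27.10 and 85.03 FPKM on Day 5 for NP-ctrl, NP-IWP2 and the passaged arm. On Day 7 it was at 108, 159 and 382 FPKM, and on Day 10 at 68.5, 60.2 and 73.4 FPKM in the same order. Every arm was lower on Day 10 than on Day 7, with a Day 10 to Day 7 ratio of 0.192 (0.185 to 0.200) in the passaged arm, 0.633 (0.603 to 0.664) in NP-ctrl and 0.378 (0.362 to 0.395) in NP-IWP2. On Day 10 the arms were within a narrow range for ACTA2, while ACTC1 was 10.4 times higher in the passaged arm than in NP-ctrl (10.1 to 10.6).

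CNN1, at chr19:11538767-11550323, was measurable throughout, with 3.30, 1.85 and 2.47 FPKM on Days 0 to 2. Its FPKM from Day 3 to Day 10 was 8.83, 5.53, 8.88 and 10.9 for NP-ctrl, 7.65, 7.03, 22.1 and 8.84 for NP-IWP2 and 2.58, 12.1, 50.6 and 28.3 for the passaged arm. As for ACTC1, the passaged library was the lowest of its day on Day 3 and the highest on Days 5, 7 and 10. ACTG2, at chr2:73892314-73919865, did not exceed 0.65 FPKM in any library, was represented by at most 39 reads, and did not pass the filter, which left 9 of the 10 genes in the tests. MYH11, the myosin heavy chain that defines differentiated smooth muscle, ranged from 0.05 to 0.17 FPKM over the 15 libraries, whereas TAGLN, an actin-binding protein of smooth muscle that early heart muscle also makes, reached 66.1 FPKM in the passaged arm on Day 7.

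The tropomyosins were expressed before induction. TPM1, at chr15:63042632-63071915, was at 12.6, 5.20 and 7.66 FPKM on Days 0 to 2 and at 16.8, 14.7 and 33.2 FPKM on Day 3 for NP-ctrl, NP-IWP2 and the passaged arm. On Day 3 TPM1 was thus 1.98 times higher in the passaged arm than in NP-ctrl (1.90 to 2.06), at a time when ACTC1, ACTA1 and CNN1 were lower there. From Day 5 to Day 10 its FPKM was 260.2, 239.8 and 189.5 for NP-ctrl, 349, 366 and 243 for NP-IWP2 and 264, 376 and 279 for the passaged arm. TPM2, at chr9:35681992-35690056, was at 26.4, 17.4 and 34.9 FPKM on Days 0 to 2, and from Day 3 to Day 10 at 56.8, 40.7, 40.7 and 32.2 FPKM for NP-ctrl, 47.2, 50.3, 60.9 and 24.0 for NP-IWP2 and 60.7, 74.2, 88.8 and 45.4 for the passaged arm. On each of these 4 days the passaged library had the highest TPM2 value. On Day 3 the TPM2 ratio to NP-ctrl was 1.07 (1.01 to 1.13), and with TMM-scaled totals its log2 value was -0.0012, so the order of these libraries on Day 3 depended on the scaling.

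TPM3, at chr1:154155304-154194648, decreased from 49.8 FPKM on Day 0 to 34.1 on Day 1 and 24.8 on Day 2. From Day 3 to Day 10 it was at 20.2, 18.8, 16.8 and 17.5 FPKM for NP-ctrl, 16.7, 17.0, 17.7 and 13.1 for NP-IWP2 and 29.2, 18.6, 15.7 and 9.60 for the passaged arm. TPM4, at chr19:16067021-16103002, was at 47.7, 42.4 and 44.3 FPKM on Days 0 to 2 and at 43.6, 42.5, 41.6 and 45.7 FPKM from Day 3 to Day 10 in NP-ctrl. In NP-IWP2 it was at 40.5, 38.5, 40.6 and 31.5 FPKM and in the passaged arm at 39.5, 42.9, 30.9 and 10.7 FPKM. On Day 10 TPM4 was 4.27 times lower in the passaged arm than in NP-ctrl (4.06 to 4.49) and 2.94 times lower than in NP-IWP2 (2.80 to 3.09), and TPM3 was 1.83 times lower than in NP-ctrl (1.73 to 1.93).

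Summed by class, the 3 striated muscle genes reached 231, 1078 and 2635 FPKM on Day 7 and 219, 755 and 2235 FPKM on Day 10 for NP-ctrl, NP-IWP2 and the passaged arm. The 3 genes also used in smooth muscle and stroma summed to 117, 182 and 433 FPKM on Day 7 and to 79.98, 69.6 and 102 FPKM on Day 10. The class sums were thus in the same order on Day 7 and differed on Day 10, when NP-IWP2 had the lowest sum of the second class.

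The make-up of each family shows which paralog supplied most of its transcript. ACTC1 made up 37.9% of the summed FPKM of the 4 muscle actins on Day 0, when the sum was 4.01 FPKM, and between 66.9% and 95.2% from Day 5 to Day 10. Its share on Day 10 was 74.7% for NP-ctrl, 91.8% for NP-IWP2 and 95.2% for the passaged arm. ACTA2 took most of the rest, with 24.7%, 7.74% and 3.26% in the same order. On Day 7 the ACTA2 share was 32.7% for NP-ctrl, 13.2% for NP-IWP2 and 12.8% for the passaged arm, so the highest ACTA2 level, in the passaged arm, coincided with a smaller share than in NP-ctrl. ACTA1 made up 3.68% in the passaged arm on Day 5 and 1.54% on Day 10, and not more than 0.383% in NP-ctrl and NP-IWP2 from Day 5 on. As shares of counts, with Wilson 95% intervals, ACTA2 took 29.8% (28.9 to 30.8) in NP-ctrl and 4.19% (4.05 to 4.33) in the passaged arm on Day 10.

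**Figure D2:**
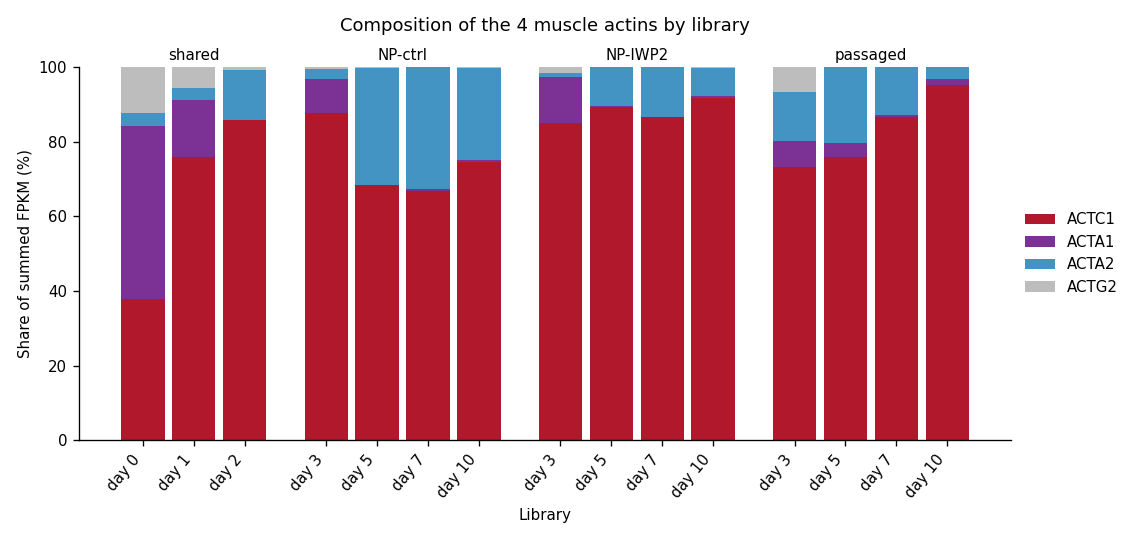
Stacked bars of the share of the summed FPKM of ACTC1, ACTA1, ACTA2 and ACTG2 (%) in each of the 15 libraries, grouped by arm and ordered by day. From Day 5 on the bars are almost wholly ACTC1 and ACTA2, and ACTA2 on Day 10 takes 24.7% for NP-ctrl, 7.74% for NP-IWP2 and 3.26% for the passaged arm.

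Among the tropomyosins the leading gene changed with time. On Day 0 TPM3 held 36.5%, TPM4 34.9%, TPM2 19.3% and TPM1 9.24% of the summed FPKM of 136, an order that the lengths used below change. On Day 3 TPM2 led in all 3 arms, with 41.4% for NP-ctrl, 39.6% for NP-IWP2 and 37.3% for the passaged arm. From Day 5 on TPM1 led in every library, with 66.5%, 78.0% and 80.9% on Day 10 for NP-ctrl, NP-IWP2 and the passaged arm. TPM4 held 16.0%, 10.1% and 3.11% on that day. These shares depend on the length assigned to a gene, because the table divides by all exons of all its transcripts, which for TPM3 came to 15156 bases against 7064 in its MANE Select transcript. With the length of the MANE Select transcript instead, TPM4 held 42.7%, TPM1 25.5%, TPM3 19.1% and TPM2 12.6% on Day 0. By the same measure TPM4 led on Day 3 in NP-ctrl (36.2%) and NP-IWP2 (38.1%) and TPM1 in the passaged arm (47.1%), while TPM1 still led from Day 5 on, with 85.9% to 94.2% on Day 10.

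**Figure D3:**
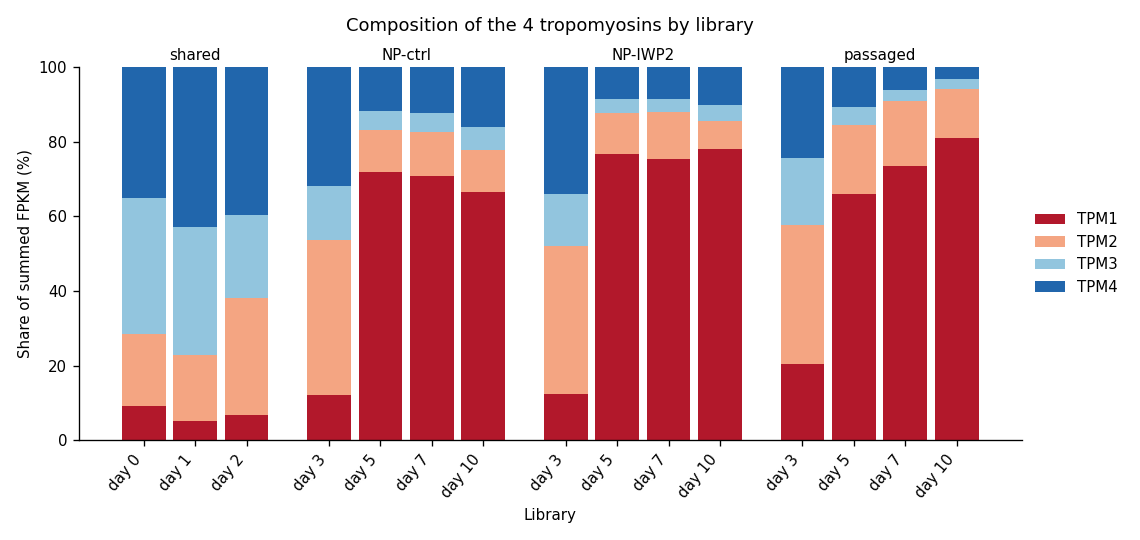
Stacked bars of the share of the summed FPKM of TPM1, TPM2, TPM3 and TPM4 (%) in each of the 15 libraries, grouped by arm and ordered by day. TPM1 rises from 9.24% on Day 0 to the largest share in all libraries of Days 5 to 10, and TPM4 on Day 10 takes 16.0% in NP-ctrl and 3.11% in the passaged arm.

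The change with time was tested over the arms, with the 3 libraries of Day 10 against the 3 of Day 3. The 3 arms, treated differently, stood in for replicates, so the error is how much changes between days varied among them. The test was the quasi-likelihood test of edgeR over the 21206 genes that reached 1 FPKM in some library, and a gene was called at a Benjamini-Hochberg adjusted p under 0.05. It called 4 of the 9 tested genes, all higher on Day 10, where 35.0% of all genes tested were called in either direction. They were ACTN2 (log2 change 8.41, SE 0.64, adjusted p = 1.19e-05), ACTA2 (8.38, SE 0.57, adjusted p = 6.16e-06), ACTC1 (6.91, SE 1.05, adjusted p = 6.03e-04) and TPM1 (3.58, SE 0.32, adjusted p = 2.64e-05). TPM2 had a log2 change of -0.66 (SE 0.24, adjusted p = 0.0542) and TPM3 of -0.63 (SE 0.23, adjusted p = 0.0543), just outside the threshold. CNN1, ACTA1 and TPM4 had changes of 1.04, 2.31 and -0.54 with adjusted p of 0.225, 0.118 and 0.219. With the mitochondrial genes removed TPM2 and TPM3 passed as well, with adjusted p of 0.0451 and 0.0432, both lower on Day 10. With the passaged arm left out TPM2 passed at -0.90 (adjusted p = 0.0213). DESeq2 called 6 of the 9 genes, TPM2 and TPM3 in addition as lower, and 8191 of the 21206 genes tested. The limma fit called 5 of the 9, TPM2 in addition as lower, and 7423 of all genes tested.

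The arms were compared over Days 3, 5, 7 and 10 with day as a block. The error is how much differences between arms varied among the days of 1 differentiation, pooled over all 3 arms. An arm outside a comparison thus also enters its error. The 3 comparisons share libraries and are not independent. In passaged against NP-ctrl 1 of the 9 genes passed, ACTA1, with a log2 change of 3.93 (SE 0.96, adjusted p = 0.0443), and 4.40% of all genes tested were called. Without Day 5, 7 or 10 this call was lost, with adjusted p of 0.223, 0.262 and 0.235, and without Day 3 it was 4.90 on the log2 scale with an adjusted p of 1.22e-04. With the mitochondrial genes removed it was 3.94 (adjusted p = 0.044). On Day 3 the ACTA1 ratio of the passaged arm to NP-ctrl was 0.223 (0.0761 to 0.540), the reverse of the later days. ACTN2 (1.45, SE 0.44, adjusted p = 0.0897), TPM2 (0.68, SE 0.21, adjusted p = 0.0965) and ACTC1 (1.61, SE 0.80, adjusted p = 0.312) did not pass. All 3 genes of striated muscle had positive estimates, from 1.45 to 3.93, as did ACTA2 at 0.61 and CNN1 at 1.06, whereas TPM3 was at -0.05 and TPM4 at -0.57. With Day 3 left out, 5 of the 9 genes were called, ACTN2 (1.85), CNN1 (1.75), ACTA1, ACTC1 (2.65) and TPM2 (0.91), with adjusted p of 0.0165, 0.00722, 1.22e-04, 0.0113 and 0.0195. In that fit 2373 of the 21206 genes tested were called.

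Between NP-IWP2 and NP-ctrl edgeR called 0 of the 9 genes, with 0.0189% of all genes tested called. At an unadjusted p under 0.05 there was 1 gene, ACTN2, with a log2 change of 1.33 (SE 0.43, adjusted p = 0.881), and DESeq2 and limma also called 0. ACTA2 had an estimate of -0.60 (SE 0.37, adjusted p = 0.973) in this comparison, the lowest of the 9 genes. The error of this fit also holds the spread of the passaged arm. With the passaged arm left out of the fit, edgeR called 1 of the 9 genes, ACTN2, higher in NP-IWP2, and 277 of the 21206 genes tested. Between the passaged arm and NP-IWP2 edgeR called 0 of the 9 genes, with 1.33% of all genes tested called, 3 genes at an unadjusted p under 0.05, 2 by DESeq2 and 0 by limma. The 3 genes were ACTA1 (3.27, SE 0.89, adjusted p = 0.124), ACTA2 (1.21, SE 0.37, adjusted p = 0.171) and TPM2 (0.67, SE 0.21, adjusted p = 0.187), and DESeq2 called the first 2 of them with adjusted p of 0.0179 and 0.0335. With Day 3 left out edgeR called ACTA1, at 3.79 (adjusted p = 9.3e-04), and 675 of the 21206 genes tested.

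A difference that appears only late is diluted in a mean over days, so a second fit asked whether the arm difference changed linearly with day. Its error is the departure of the arms from such straight lines, pooled over the 3 arms. It had 4 residual degrees of freedom, and 2 with a day left out, so its p-values rest on little. For passaged against NP-ctrl 2 of the 9 genes passed, where 6.15% of all genes tested did. The ACTC1 difference grew by 0.80 on the log2 scale per day (SE 0.15, adjusted p = 0.0163) and that of ACTN2 by 0.44 per day (SE 0.10, adjusted p = 0.0335). Without Day 3 the adjusted p was 0.102 for ACTC1 and 0.126 for ACTN2, and without Day 5 it was 0.0472 and 0.128. Without Day 10 the slopes were 1.46 and 0.86 per day, with adjusted p of 0.00139 and 0.0204, and CNN1 passed as well at 1.12 per day (adjusted p = 0.00542). ACTA1, at 0.62 per day (adjusted p = 0.284) over all days, passed without Day 5 (0.99 per day, adjusted p = 0.0205) and stood at -0.0098 per day without Day 3. TPM4 had the lowest slope of the 9, -0.25 per day (SE 0.07, adjusted p = 0.0717), and passed without Day 3 (-0.39 per day, adjusted p = 0.0219). CNN1 had a slope of 0.44 per day (SE 0.16, adjusted p = 0.127). ACTA2 had a slope of 0.04 per day (SE 0.13, adjusted p = 0.942). Between NP-IWP2 and NP-ctrl edgeR called 0 of the 9 genes and 0% of all genes tested, with 2 genes at an unadjusted p under 0.05 (ACTC1 and ACTN2) and 0 by DESeq2 and limma. For passaged against NP-IWP2 it called 0 of the 9 genes and 1.02% of all genes tested, with 4 genes at an unadjusted p under 0.05 (CNN1, TPM3, ACTC1 and TPM4), 1 by DESeq2 (CNN1) and 0 by limma, and without Day 10 edgeR called ACTC1, at 0.72 per day (adjusted p = 0.0454).

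**Figure D4:**
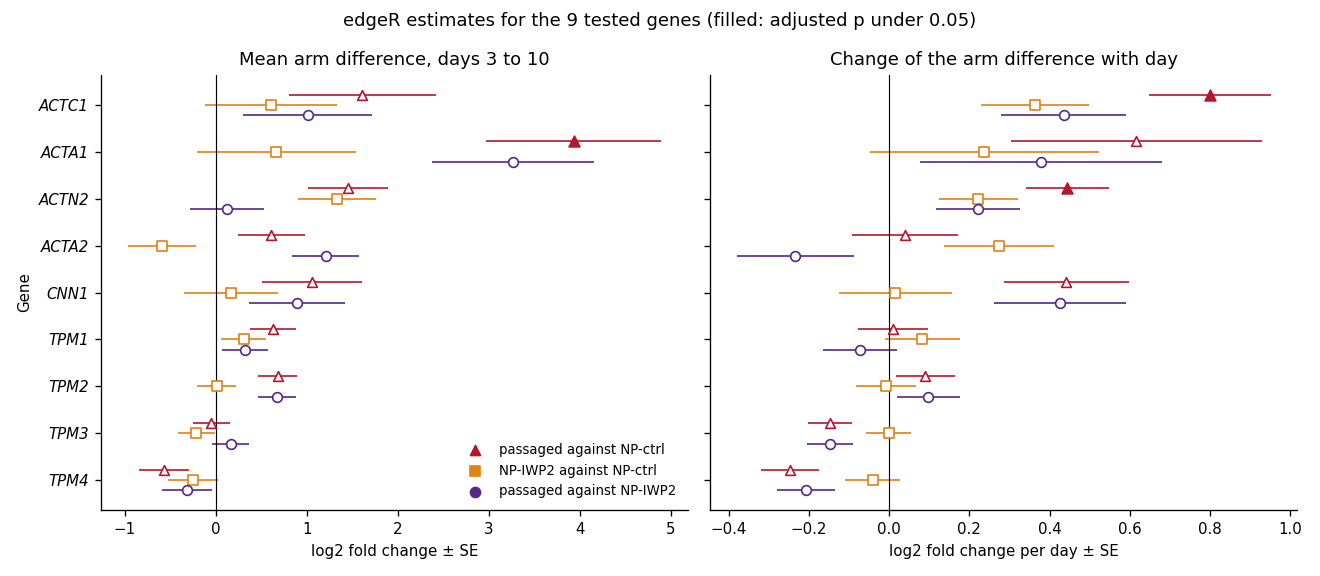
edgeR estimates with SE for the 9 tested genes, as the log2 change between arms over Days 3 to 10 (left) and as the change of that difference per day (right), with filled symbols for an adjusted p under 0.05. ACTA1 is the filled symbol on the left at 3.93, and ACTC1 at 0.80 and ACTN2 at 0.44 are those on the right, all for the passaged arm against NP-ctrl.

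Single libraries of the same day were also compared, as ratios with exact 95% intervals and with no test. On Day 3, 2 of the 9 genes past the filter differed by at least 1 in log2(FPKM + 1) between the passaged arm and NP-ctrl, both lower in the passaged arm, against 8.49% of all genes. They were ACTC1, 4.25 times lower (3.21 to 5.71), and CNN1, 3.43 times lower (2.75 to 4.31). On Day 5 the ratio of the passaged arm to NP-ctrl was 52.3 for ACTA1 (29.0 to 105), 2.19 for CNN1 (1.88 to 2.55), 1.82 for TPM2 (1.73 to 1.93), 1.73 for ACTC1 (1.68 to 1.78) and 1.30 for ACTN2 (1.22 to 1.38). ACTA2 was level between those libraries on that day, at 1.01 (0.963 to 1.05), but 3.12 times lower in NP-IWP2 than in NP-ctrl (2.92 to 3.33). On Day 7 the ratio was 12.8 for ACTA1 (9.17 to 18.4), 11.6 for ACTC1 (11.3 to 11.9), 5.71 for ACTN2 (5.44 to 5.997), 5.70 for CNN1 (5.08 to 6.42) and 3.53 for ACTA2 (3.41 to 3.65). TPM2, at 2.18 (2.06 to 2.31), and TPM1, at 1.57 (1.55 to 1.59), were also higher that day, while TPM4 was at 0.743 (0.717 to 0.769). On Day 10, 5 of the 9 differed in this comparison, 4 higher and 1 lower, against 17.4% of all genes. The ratios of the passaged arm to NP-ctrl on Day 10 were 32.7 for ACTA1 (23.3 to 47.4), 10.4 for ACTC1 (10.1 to 10.6), 5.03 for ACTN2 (4.82 to 5.25) and 2.61 for CNN1 (2.33 to 2.92), and TPM4 was the lower gene. For ACTA2 the ratio was 1.07 (1.02 to 1.13) and for TPM1 1.47 (1.45 to 1.49). Between NP-IWP2 and NP-ctrl 2 of the 9 genes differed on Day 10, ACTC1 at 3.44 (3.35 to 3.54) and ACTN2 at 3.66 (3.50 to 3.82), against 9.35% of all genes. Passaged against NP-IWP2, 4 of the 9 did, 3 higher and 1 lower, against 10.1% of all genes. The 3 higher were ACTA1 at 12.1 (9.95 to 14.9), CNN1 at 3.21 (2.86 to 3.60) and ACTC1 at 3.01 (2.97 to 3.05). ACTN2 was 1.38 times higher in the passaged arm than in NP-IWP2, and ACTC1 3.01 times.

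**Figure D5:**
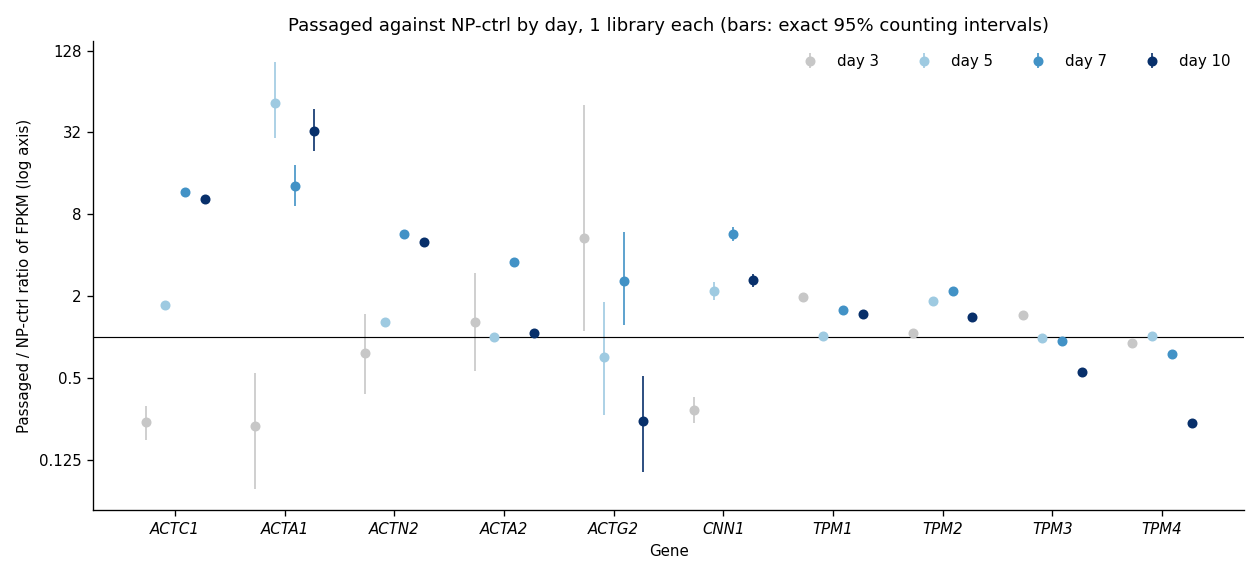
Ratio of FPKM in the passaged arm to NP-ctrl for each of the 10 genes on Days 3, 5, 7 and 10 on a log axis, with exact 95% intervals for counting error and 1 library per arm and day. ACTC1, ACTA1 and CNN1 lie under 1 on Day 3 and above it afterwards, TPM4 lies at 0.234 on Day 10, and the intervals of ACTG2 rest on few reads and are wide.

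Set against MYL7, the myosin light chain of atrial and early heart muscle within the same library, the genes took different courses. The ratio of ACTC1 to MYL7 in FPKM was 0.854 for NP-ctrl, 0.990 for NP-IWP2 and 1.15 for the passaged arm on Day 10. The ratio of ACTA2 to MYL7 was 0.282, 0.0835 and 0.0393 in the same order, and that of TPM1 to MYL7 0.781, 0.338 and 0.149. ACTA1 to MYL7 was 0.00437, 0.00398 and 0.0186. The third striated muscle gene went the other way, with ACTN2 to MYL7 at 0.0439, 0.0540 and 0.0287. On Day 7 the ratio of ACTC1 to MYL7 was further apart, at 0.561, 0.855 and 1.63. Set against TNNT2, cardiac troponin T, the ratio of ACTC1 on Day 10 was 9.49, 16.7 and 38.7, so how far the arms differed depended on the reference gene. ACTA2 and TPM1 had lower ratios in the passaged arm than in NP-ctrl on Day 10 with TNNT2 as well, at 1.32 against 3.14 and at 5.02 against 8.68.

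The partners of these genes in the thin filament and Z-disc were taken from a list of 15 genes, of which 14 were tested. This list and those that follow were chosen with earlier results of these data known. Their counts against all genes are thus descriptive and no independent evidence. Passaged against NP-ctrl, 6 of the 14 were called, all higher, where 4.40% of all genes tested were called, with a median log2 change of 1.76 against -0.0025 over all genes tested. DESeq2 called 9 of the 14 and limma 0, with 10 at an unadjusted p under 0.05 in limma. LDB3, a Z-disc adaptor, had a log2 change of 3.22 (SE 0.24, adjusted p = 1.56e-04), XIRP1, an actin-binding protein of the intercalated disc, 3.12 (SE 0.34, adjusted p = 8.77e-04), CSRP3, a Z-disc LIM protein, 4.49 (SE 0.56, adjusted p = 0.00404) and MYOZ2, which tethers calcineurin to alpha-actinin, 2.60 (SE 0.45, adjusted p = 0.0145). LDB3 was called in the other arm comparisons as well, at 1.97 (adjusted p = 0.0276) between NP-IWP2 and NP-ctrl and at 1.25 (adjusted p = 0.0215) between the passaged arm and NP-IWP2, where 0.0189% and 1.33% of all genes tested were called. It was the only gene of the list that edgeR called in each, while DESeq2 called 3 and 4 of the 14, LDB3 among them, and limma called 0 in both, with 6 and 2 at an unadjusted p under 0.05. On Day 10 against Day 3, 12 of the 14 were called, all higher, against 35.0% of all genes tested, with a median of 5.00 against 0.04 over all genes tested. In the fit of the change with day between the passaged arm and NP-ctrl, 2 were called, TMOD1, which caps the pointed end of thin filaments, at 0.97 per day (SE 0.15, adjusted p = 0.00844), and TNNI1, the fetal troponin I, at 0.42 per day (SE 0.09, adjusted p = 0.0279), against 6.15% of all genes tested. DESeq2 called 6 in that fit and limma 1, TMOD1.

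The list of smooth muscle contractile genes held 10 genes, 9 of them tested. Passaged against NP-ctrl, 1 was called, lower, SMTN, which encodes smoothelin, at -0.95 (SE 0.24, adjusted p = 0.0469), and the median was -0.20. DESeq2 called 2, SMTN and TAGLN, and limma 0, with 3 at an unadjusted p under 0.05, where 4.40% of all genes tested were called by edgeR. TAGLN was not called by edgeR in either direction and had its highest level, 66.1 FPKM, in the passaged arm on Day 7. In NP-ctrl on that day all 5 genes of the smooth muscle cell list, TAGLN among them, summed to 31.8 FPKM. Between Day 3 and Day 10, 6 were called higher and 2 lower, against 35.0% of all genes tested in either direction, with a median of 1.84. SYNPO2, LMOD1, CALD1 and MYL9 had the lowest p among them, at 7.37, 3.71, 2.15 and 1.84 (adjusted p = 5.53e-06, 7.57e-05, 1.01e-04 and 0.00244), and SMTN and PDLIM7 were the 2 lower genes. MYL9 and TAGLN, like ACTA2 and CNN1, were highest in the passaged arm on Day 7, at 215 and 66.1 FPKM. The cytoplasmic actin list held 15 genes, all tested, among them ACTB and ACTG1, the actins of non-muscle cells. On Day 10 against Day 3, 2 were called higher and 6 lower, 8 of the 15 against 35.0% of all genes tested, with a median of -0.65. TMSB10, which sequesters actin monomers, was at -2.09 (adjusted p = 5.91e-04), CFL1, the non-muscle cofilin, at -0.99 (adjusted p = 0.00312), ACTG1 at -0.94 (adjusted p = 0.00844), and CFL2, the muscle cofilin, at 1.97 (adjusted p = 2.41e-04). In passaged against NP-ctrl edgeR called 0 of the 15, with 3 at an unadjusted p under 0.05, 1 by DESeq2 (ACTG1) and 0 by limma, and CFL2 was called in the fit of the change with day, at 0.21 per day (SE 0.05, adjusted p = 0.0364), where DESeq2 called 3 and limma 0, with 5 at an unadjusted p under 0.05.

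SRF, the factor that binds CArG boxes, was listed with the coactivators MYOCD, MRTFA and MRTFB, the LIM proteins FHL1 and FHL2 and VCL, the focal adhesion protein vinculin, which is no coactivator. All 7 genes were tested. In the comparison of the passaged arm with NP-ctrl, MYOCD, the heart and smooth muscle coactivator of SRF, was called at 2.36 (SE 0.49, adjusted p = 0.0233) and FHL1 at 1.71 (SE 0.40, adjusted p = 0.0359), and the other 5 were not, against 4.40% of all genes tested. DESeq2 called FHL2 and VCL in addition, and limma called 0, with 6 at an unadjusted p under 0.05. MYOCD stood at 3.76, 16.1, 86.3 and 51.6 FPKM from Day 3 to Day 10 in the passaged arm, against 1.64, 6.67, 5.28 and 5.54 in NP-ctrl. SRF itself was at 11.2 to 30.6 FPKM in the 12 libraries of Days 3 to 10. On Day 10 against Day 3, 5 of the 7 were called, all higher, against 35.0% of all genes tested. They were VCL, which had the lowest p, MYOCD, MRTFB, FHL2 and FHL1.

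Markers of other cells moved with the arms, and their part in the results was not tested. The 7 genes of the fibroblast and stroma list summed to 4064 FPKM for NP-ctrl, 1097 for NP-IWP2 and 96.2 for the passaged arm on Day 10, and on Day 7 to 3994, 1163 and 413 FPKM. Against NP-ctrl, edgeR called 3 of the 7 in the passaged arm, all lower, where 4.40% of all genes tested were called. DESeq2 called 4 and limma 1 (TCF21). Across Days 3 to 10 the sum lay between 132 and 4064 FPKM in NP-ctrl, between 98.7 and 1163 in NP-IWP2 and between 96.2 and 413 in the passaged arm. On Day 10 DCN, the matrix proteoglycan decorin, was at 43.1, 5.58 and 0.05 FPKM and TCF21 at 6.91, 6.18 and 0 for NP-ctrl, NP-IWP2 and the passaged arm. The hepatic endoderm markers AFP, APOA1 and TTR summed to 3666, 1092 and 17.8 FPKM on Day 10. Of the 3, edgeR called 2 lower in the passaged arm than in NP-ctrl, against 4.40% of all genes tested. DESeq2 called 2 and limma 0, with 3 at an unadjusted p under 0.05 in limma. The epicardial markers WT1, TBX18 and UPK3B summed to 62.1, 70.2 and 0.17 FPKM on that day. In the passaged arm edgeR called 2 of the 3 lower than in either other arm, against 4.40% (NP-ctrl) and 1.33% (NP-IWP2) of all genes tested. DESeq2 called 1 (WT1) in each and limma 0, with 2 at an unadjusted p under 0.05. The endothelial markers PECAM1, CDH5 and KDR summed to 95.5, 104 and 119.9 FPKM on Day 10 and to 134, 91.8 and 29.9 FPKM on Day 7. Nearly all of this was KDR, which mesoderm also makes and which stood at 18.02 FPKM on Day 0, whereas PECAM1 did not exceed 1.29 FPKM and CDH5 2.44 FPKM in any library. The smooth muscle cell list of 5 genes summed to 37.9, 32.2 and 41.9 FPKM on Day 10 and to 31.8, 43.1 and 87.8 on Day 7, with TAGLN the largest term.

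Likeness was measured as Pearson's correlation of log2(FPKM + 1) over the 15 libraries with 13874 protein-coding genes, a description across libraries that share days and depth. The 3 genes most like ACTC1 were PYGM, EDNRA and TNNI1 (0.987, 0.986 and 0.984), and those most like ACTN2 were POPDC2, RNF207 and CMYA5 (0.989, 0.987 and 0.987). For ACTA1 they were LPL, GLRB and GPR183 (0.975, 0.973 and 0.949), and for ACTA2 GDF6, TNNT2 and EDNRA (0.975, 0.962 and 0.961). For TPM1 they were MYL7, TNNI1 and CDK6 (0.978, 0.974 and 0.971). For CNN1 the 2 most alike were ANKRD1 and MAP1LC3B (0.929 and 0.918). TPM2 was most like ERCC1, ZNF428 and SH3KBP1 (0.949, 0.875 and 0.867), TPM3 like DLGAP3, RABEPK and CYB561 (0.961, 0.957 and 0.955) and TPM4 like SERP1, INPP5F and LIN28B (0.926, 0.892 and 0.891). ACTG2, with few reads, was most like SH2D3C, GUCY1B1 and GLRX (0.880, 0.871 and 0.853). Among the 10 genes themselves the correlation was 0.978 between ACTC1 and ACTN2 and 0.953 between ACTA2 and TPM1, and it was -0.798 between ACTC1 and TPM3.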

How the data were processed

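Bulk RNA sequencing of 15 libraries was analysed from 1 deposited table. According to the submitters' processing notes the reads were trimmed with Cutadapt (version 1.9.1), aligned to hg38 with Hisat2 (version 2.0.1) and counted per Ensembl gene with HTSeq (version 0.6.1). The authors deposited raw counts for 60605 genes, and FPKM values that they made from the same counts after scaling for exonic length and total count. Recomputed FPKM values differed from the deposited ones by at most 0.0050. The library protocol names a long-read kit whereas these are short-read tools, and which kind of read was counted could not be resolved, so levels compared between genes per length carry that doubt. The annotation release is not given in the sources used here. Of the genes, 60463 matched GENCODE release 44 by identifier and 93.8% of these had identical coordinates. 7 of the 10 genes described did, and ACTC1, TPM1 and TPM3 differed at an end. Coordinates are those of the table, on GRCh38.

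Groups and days came from the labels. No library is replicated. The p-values of the arm comparisons thus measure the spread of arm differences from day to day within 1 differentiation, pooled over the 3 arms. Those of Day 10 against Day 3 measure how much the change between days varied among the 3 arms, which are not replicates. The 21206 genes that reached 1 FPKM in any of the 15 libraries entered edgeR (version 4.0.16, in R version 4.3.3), whose quasi-likelihood test with TMM normalization was fitted to 12 libraries, Days 3 to 10, with terms for day (a factor) and arm. The change of an arm difference with day was an added term of arm by day, whose p-values measure departure from a straight line. P-values were adjusted by Benjamini-Hochberg over all genes tested. DESeq2 (version 1.42.0), limma (version 3.58.1) on log2(FPKM + 1), other size factors, other filters, the removal of mitochondrial genes, of each day or arm and of the third arm were alternatives. Single libraries were compared as ratios of FPKM with Clopper-Pearson 95% intervals, and a gene counted as differing when log2(FPKM + 1), which understates the change of low genes, differed by at least 1. Shares of counts carry Wilson 95% intervals. Family shares were also computed per length of the MANE Select transcript, an alternative chosen after seeing the data. Intervals cover counting error only. The fits and intervals were tested on simulated counts.

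The 10 genes and the gene lists were chosen with earlier results of these data known. Named are all 10 genes, for each list up to 4 genes with the lowest p among those called (or otherwise the lowest p), and for each gene the 3 protein-coding genes most like it. Marker lists are named whole where they are short. Outside this rule, DCN, TCF21, ACTB, SRF, MYH11, TAGLN, PDLIM7, MYOD1, MYOG and MYF5, the other genes of the SRF list, genes called only by another tool, and MYL7 and TNNT2 as references were picked after their values were seen. Sequences were read from GRCh38 and GENCODE release 44, and 8 of the 10 promoter windows also start where a RefSeq entry does. The authors' DESeq2 results were not used here. Of the 3 genes most like CNN1, 1 is not reported here.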

Additional observations from a re-analysis of the deposited data

Results flagged for a closer look

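2 results were singled out because the effect of an arm differed between days by the test of that difference itself. For ACTC1 the log2 difference between the passaged arm and NP-ctrl changed by 0.80 per day, and for ACTN2 by 0.44 per day. Both are in fits in which each day has 1 library per arm. By day, ACTC1 in the passaged arm stood at 0.235 times its NP-ctrl level on Day 3 (exact 95% interval, 0.175 to 0.311), 1.73 (1.68 to 1.78) on Day 5, 11.6 (11.3 to 11.9) on Day 7 and 10.4 (10.1 to 10.6) on Day 10. For ACTN2 it was 0.760 (0.379 to 1.48), 1.30 (1.22 to 1.38), 5.71 (5.44 to 5.997) and 5.03 (4.82 to 5.25) on the same days, with 16 and 25 reads on Day 3. In both genes the ratio was no higher on Day 10 than on Day 7. Groups of 1 library per arm and day were too small for a search for outlying samples.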

How the results depend on the processing

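The number of the 9 tested genes called depended on the tool and filter. Between the passaged arm and NP-ctrl (1 called) it was 3 with DESeq2, 6 with no filter, and 0 with limma, with filterByExpr and with only the 2 arms compared. Between NP-IWP2 and NP-ctrl (0 called) it was 1, ACTN2, with no filter and with only the 2 arms. Between the passaged arm and NP-IWP2 (0 called) it was 2 with DESeq2 and 3 with no filter. From Day 3 to Day 10 (4 called) it was 6 with DESeq2, 5 with limma, 7 with filterByExpr and 9 with no filter, and the last 2 also tested ACTG2. For the change with day between the passaged arm and NP-ctrl (2 called) it was 4 with DESeq2, 4 with no filter, and 0 with limma and with only the 2 arms. For NP-IWP2 against NP-ctrl it was 1 with only the 2 arms (ACTC1), and for the passaged arm against NP-IWP2 1 with DESeq2 and 2 with no filter. With 1 day left out, the counts ranged from 0 to 5 between the passaged arm and NP-ctrl (5 without Day 3), from 0 to 1 between the passaged arm and NP-IWP2, from 1 to 3 for the change with day between the passaged arm and NP-ctrl, and from 0 to 1 for that between the passaged arm and NP-IWP2. Calls over all 21206 genes in these fits ranged from 133 to 2373, 13 to 675, 575 to 920 and 98 to 440 in the same order. The cause was not tested. Over all genes, the fits with no filter tested 41457 genes, and those by edgeR, DESeq2 and limma and with only the 2 arms tested 21206. Calls between the passaged arm and NP-ctrl numbered 933 by edgeR, 2150 by DESeq2, 153 by limma, 2571 with no filter and 109 with only the 2 arms. Those between NP-IWP2 and NP-ctrl numbered 4, 59, 0, 372 and 277 in the same order, those between the passaged arm and NP-IWP2 282, 892, 6, 1368 and 163, those for the change with day between the passaged arm and NP-ctrl 1305, 2028, 339, 2188 and 259, those for NP-IWP2 against NP-ctrl 0, 89, 0, 65 and 271, and those for the passaged arm against NP-IWP2 217, 704, 1, 800 and 79. From Day 3 to Day 10 the 7423 calls by edgeR became 8191 by DESeq2, 7423 by limma, 8428 with no filter and 2235 with NP-IWP2 left out. With filterByExpr 8258 of 20851 genes tested were called.

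TMM-scaled totals turned the sign of 3 small log2 ratios of the passaged arm to NP-ctrl, to -0.0057 for TPM1 on Day 5, -0.0012 for TPM2 on Day 3 and 0.047 for TPM3 on Day 7. Of the log2 changes of single genes, 591 kept direction and side of the threshold, 43 gained and 13 lost a call over the alternatives, and 28 turned sign, 0 of them called with or without the alternative. With 1 day left out, the differences that turned ranged from -0.23 to 0.16 for TPM3 between the passaged arm and NP-ctrl, from -0.12 to 0.44 for CNN1 and -0.18 to 0.17 for TPM2 between NP-IWP2 and NP-ctrl, and from -0.11 to 0.29 for ACTN2 and -0.068 to 0.29 for TPM3 between the passaged arm and NP-IWP2. The slopes per day that turned ranged, for the passaged arm against NP-ctrl, from -0.10 to 0.57 for ACTA2, -0.024 to 0.13 for TPM1, -0.0098 to 1.22 for ACTA1 and -0.045 to 0.32 for TPM2. For NP-IWP2 against NP-ctrl they ranged from -0.16 to 0.42 for CNN1, -0.017 to 0.24 for TPM1, -0.061 to 0.13 for TPM3, -0.084 to 0.059 for TPM4 and -0.16 to 0.25 for TPM2, and for the passaged arm against NP-IWP2 from -0.26 to 0.15 for TPM1 and -0.13 to 0.92 for ACTA1. The other turns were slopes near 0, that of TPM1 for the passaged arm against NP-ctrl with limma (-0.020), and for NP-IWP2 against NP-ctrl those of TPM3 with no filter (0.0029), filterByExpr (0.0017), no mitochondrial genes (0.0022) and only the 2 arms (0.0072) and of TPM2 with only the 2 arms (1.59e-05). Of the recomputed ratios 403 stayed and 74 moved by more than the counting interval, and of the recomputed shares 85 stayed and 155 moved, by the length of the transcript or by counts in place of FPKM. The arm comparisons already take the arms day by day, with day as a block. Beyond that, no paired analysis was possible because the libraries carry no replicate numbers. 1 library per arm and day allows no estimate of the spread between differentiations, and ACTG2 and, before Day 5, ACTA1, ACTA2 and ACTN2 have too few reads for small differences to be detectable.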
